A study of Mus musculus with 12 samples.

Results

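The genes described here encode the constitutive proteasome, the protease complex that degrades proteins tagged with ubiquitin. They were taken as every protein-coding gene of the expression table whose symbol is Psma, Psmb, Psmc or Psmd followed by a number, leaving out the immunoproteasome subunits Psmb8, Psmb9 and Psmb10. The rule found 36 of 54532 genes, of which 16 belong to the core particle and 20 to the regulatory particle. The RNA came from MC38, an established line of mouse colorectal cancer cells, and was sequenced as 12 libraries in 4 groups. The groups were untreated control cells, cells given 3 µM nintedanib (an inhibitor of the receptor tyrosine kinases of fibroblast, platelet-derived and vascular endothelial growth factors), cells given 8 Gy of X-rays, and cells given both. The labels give 24 h for the treatments and 3 independent repeats of the experiment, and name no genetic change in the line. Values are fragment counts divided by gene length and library depth (FPKM). Levels set side by side between genes therefore depend on the gene model lengths used, which ran from 899 to 7265 bases among the genes tested below.

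The core particle is a barrel of outer alpha rings (Psma genes) around inner beta rings (Psmb genes), and 3 of the beta subunits, Psmb5, Psmb6 and Psmb7, carry the active sites that cut peptide bonds. The regulatory particle caps the barrel: its base holds a ring of ATPases (Psmc1 to Psmc6) that unfold the substrate and open the gate, and its lid holds the deubiquitinase Psmd14, which removes the ubiquitin chain before the protein enters. Transcription of the subunit genes is known to be raised together by the factor NRF1 (gene Nfe2l1) when proteasome activity is short.

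The rule also takes in genes whose symbols fit but whose products are not subunits of the common particle. Psmd5, Psmd9 and Psmd10 encode chaperones that help to assemble the base and are counted here with the regulatory particle. Psma8, the testis form of an alpha subunit, was listed at 0 in all 12 libraries. Psmb11, the thymus form of a beta subunit, reached at most 0.0235 FPKM. These 2 genes were below the level needed for testing, which was 1 FPKM reached by at least 3 libraries, so 34 members were tested: 14 of the core (7 alpha and 7 beta) and 20 of the regulatory particle.

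The promoters of 29 members were found in RefSeq (GRCm38.p6) as 31 windows of 280 bases, from 250 before to 30 after the start of the transcript. Those of Psma8, Psmb1, Psmb2, Psmb7, Psmc3, Psmd3 and Psmd7 were not in the table used. The antioxidant response element core TGACNNNGC, the sequence bound by NRF1 and NRF2 with small MAF proteins, was searched on both strands and was present in 5 of 31 windows (16.1%), against 11.5% of 32851 promoter windows of the same length. The NF-Y box CCAAT was present in 12 (38.7%, against 36.1%), of which 7 were among 13 core windows. The E-box CACGTG was present in 2, those of Psma4 and Psmd9 (6.45%, against 6.79%). Printed below are the windows of Psmd8 and Psmc6, the subunit genes with the largest changes in opposite directions, and those of the catalytic genes Psmb5 and Psmb6. Each is cut before the first annotated exon, is written 5′ to 3′ on the strand of the gene, and has matches to TGACNNNGC in capitals.
Psmd8, chr7:29180702-29180923, minus strand: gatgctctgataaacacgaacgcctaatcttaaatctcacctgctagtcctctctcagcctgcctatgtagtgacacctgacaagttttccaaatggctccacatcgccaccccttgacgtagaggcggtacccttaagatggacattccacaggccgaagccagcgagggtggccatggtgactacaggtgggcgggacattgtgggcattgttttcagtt
Psmc6, chr14:45329574-45329787, plus strand: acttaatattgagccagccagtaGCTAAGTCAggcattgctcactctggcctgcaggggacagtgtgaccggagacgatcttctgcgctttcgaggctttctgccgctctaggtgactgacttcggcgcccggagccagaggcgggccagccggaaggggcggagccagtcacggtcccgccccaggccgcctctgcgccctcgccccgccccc
Psmb5, chr14:54618023-54618245, minus strand: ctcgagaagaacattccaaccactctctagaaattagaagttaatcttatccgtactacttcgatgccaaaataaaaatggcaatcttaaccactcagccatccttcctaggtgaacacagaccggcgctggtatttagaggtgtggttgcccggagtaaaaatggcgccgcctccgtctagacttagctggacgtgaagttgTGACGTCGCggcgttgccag
Psmb6, chr11:70525107-70525356, plus strand: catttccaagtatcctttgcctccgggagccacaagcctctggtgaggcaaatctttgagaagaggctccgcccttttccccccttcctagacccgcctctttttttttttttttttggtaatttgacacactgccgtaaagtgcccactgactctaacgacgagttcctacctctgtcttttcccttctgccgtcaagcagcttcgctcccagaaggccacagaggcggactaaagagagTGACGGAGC
The match in Psmc6 lay on the opposite strand and began 227 bases before the start, that in Psmb5 lay 47 bases before it on the same strand, and that in Psmb6 lay 9 bases before it on the same strand. The Psmd8 window held none of the 3 motifs, which says only that these letters are not in it.

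Each library held between 16103528 and 18196615 fragments, of which the 36 genes took 0.462% to 0.545%. A tested member had between 308 and 13629 fragments in a library. Of the markers of the labelled cell type, Epcam, an epithelial gene, was at 0 in every one of the 12 libraries. The keratins Krt8 and Krt18 reached at most 0.601 and 0.0838 FPKM. Cdh1, also epithelial, was expressed, averaging 4.487 FPKM in controls, 5.324 with nintedanib, 5.685 after radiation and 8.26 with both. The mesenchymal gene Vim averaged 579 FPKM in controls. The T-cell gene Cd3e was listed at 0 in all 12, and the leukocyte gene Ptprc reached at most 0.0292 FPKM. The macrophage-associated lysosomal gene Cd68 averaged 4.003 FPKM in controls, 14.02 with nintedanib, 4.76 after radiation and 17.6 with both, and its part in the results below was not tested.

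In the controls, and less evenly in the other groups, the members moved together from library to library. Of the 34 tested members, 33 were lowest of the controls in control 1 and 33 were highest in control 2, whereas over all 13012 genes tested control 1 was lowest for 39.1% and control 2 highest for 40.2%. Control 2 exceeded control 1 for all 34 members, with a median log2 difference of 0.197 against 0.0174 over all genes. Combination 1 was the lowest of its group for 30 of 34 members (39.6% of all genes) and nintedanib 2 for 25 of 34 (31.6% of all genes). Nintedanib 3 was highest for 11 members and lowest for 8, and radiation 2 highest for 7 and lowest for 9. What set control 1, control 2, combination 1 and nintedanib 2 apart was not tested. Counts of changed members are therefore given below with single libraries left out.

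**Figure D1:**
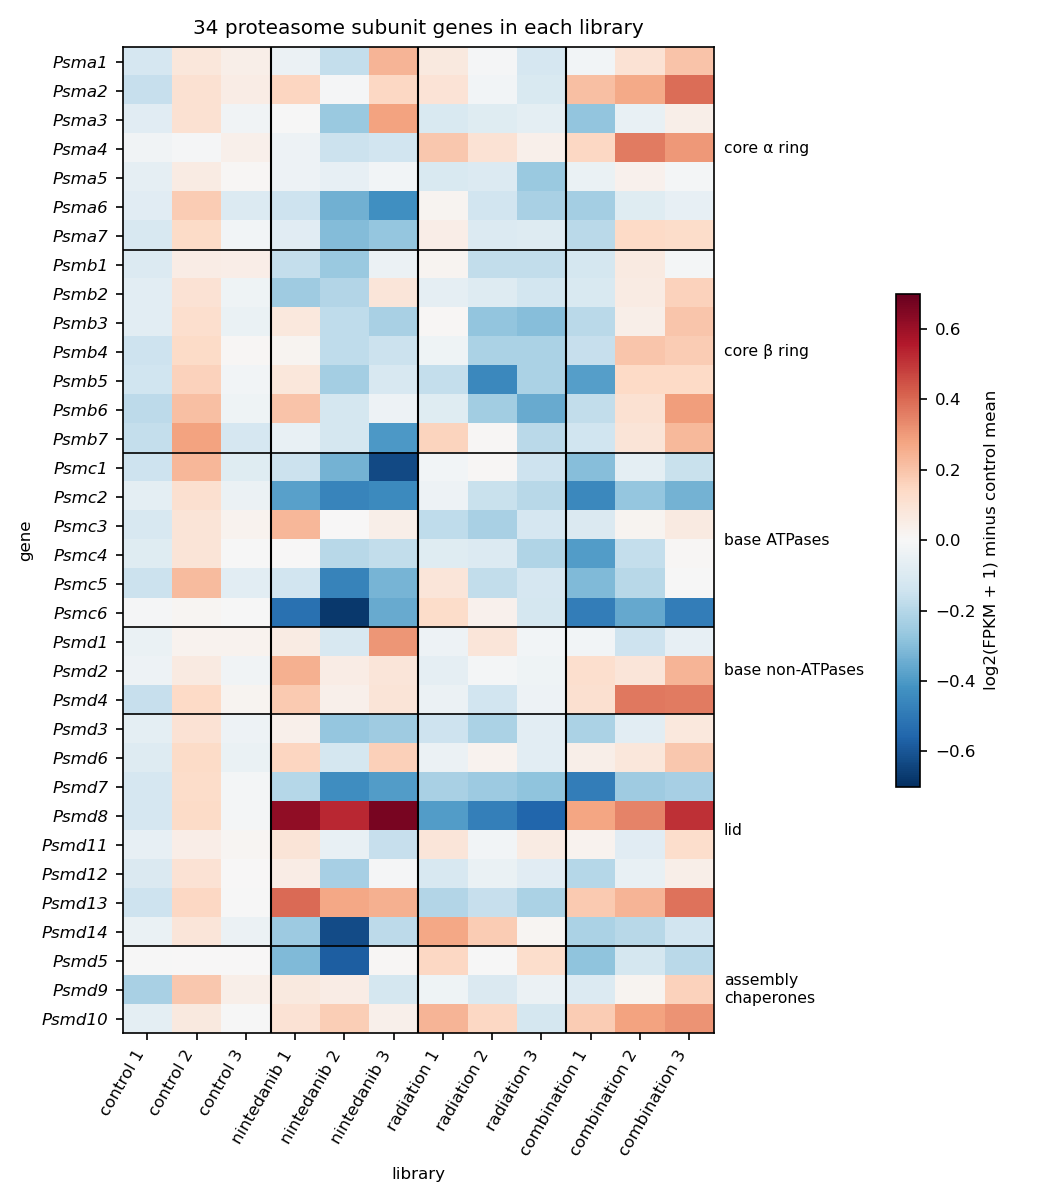
Levels of the 34 tested members (rows, grouped by place in the complex) in each of the 12 libraries (columns), coloured by log2(FPKM + 1) minus the control mean, from blue (lower) to red (higher). Psmd8 and Psmd13 are red in all nintedanib and combination libraries and Psmc6 and Psmc2 are blue there, and the column of control 2 is red along nearly its whole length.

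In control cells the tested members ranged from 4.41 to 159 FPKM with a median of 44.9. The highest level was that of Psmd2, a large base subunit that binds ubiquitin-like domains, with 156, 166 and 156 FPKM in the 3 control libraries. Psmd7, the lid partner of the deubiquitinase, came next with 103, 123 and 111 FPKM. The order of this pair did not depend on the library, since every control value of Psmd2 lay above every one of Psmd7. The lowest were the chaperone Psmd9 with 3.59, 5.12 and 4.53 FPKM and Psmd10 (gankyrin) with 12.6, 13.97 and 13.2 FPKM, which also did not overlap. In control fragments this pair had the reverse order, with 432, 642 and 567 for Psmd9 and 308, 355 and 336 for Psmd10. Their gene models are 7248 and 1469 bases long. Core means ran from 21.01 FPKM for Psma3 to 104 for Psmb4, a 4.93-fold range, against 36.1-fold for the regulatory particle. The low end of the regulatory range was made up of the assembly chaperones Psmd9, Psmd10 and Psmd5. Among the other regulatory members the lowest mean was 22.92 FPKM, for Psmd11. Both ranges are in FPKM and so also depend on gene model lengths.

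The catalytic subunits were not equal in FPKM. Psmb5, which carries the chymotrypsin-like site, had 82.4, 102 and 89.8 FPKM in controls. Psmb6, with the caspase-like site, had 40.9, 54.1 and 45.7 FPKM, and Psmb7, with the trypsin-like site, had 21.4, 29.5 and 22.2 FPKM. Each control library showed the same order in FPKM, and no control value of a higher gene overlapped one of a lower gene. Their control fragments were close, however: 1230, 1586 and 1394 for Psmb5, 1272, 1752 and 1476 for Psmb6, and 1215, 1744 and 1310 for Psmb7. The order thus came mostly from the gene model lengths of 899, 1872 and 3421 bases, which were the same in every library. Over all 12 libraries the ratio of the highest to the lowest level was 1.43 for the median member, 1.23 for the steadiest, Psmd11, and 2.35 for the most variable, the lid subunit Psmd8. The largest such ratio in the core was 1.64, for Psmb7.

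Summed over its genes, the core particle had 758, 892 and 807 FPKM in controls, 799, 710 and 764 with nintedanib, 809, 734 and 718 after radiation, and 739, 878 and 903 with both. The regulatory sums were 970, 1124 and 1019 in controls, 1080, 938 and 998 with nintedanib, 991, 962 and 940 after radiation, and 950, 1021 and 1084 with both. The ranges of all 4 groups overlapped for the core and for the regulatory particle. The ratio of regulatory to core sum was 1.26 to 1.28 in controls and 1.31 to 1.35 with nintedanib, ranges that did not overlap, and 1.22 to 1.31 after radiation and 1.16 to 1.28 with both. Without Psmd8 the ratio was 1.16 to 1.18 in controls and 1.14 to 1.198 with nintedanib, which overlapped. After radiation this ratio was 1.149 to 1.234, a range that overlapped the controls. With both treatments it was 1.047 to 1.153, below all controls.

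**Figure D2:**
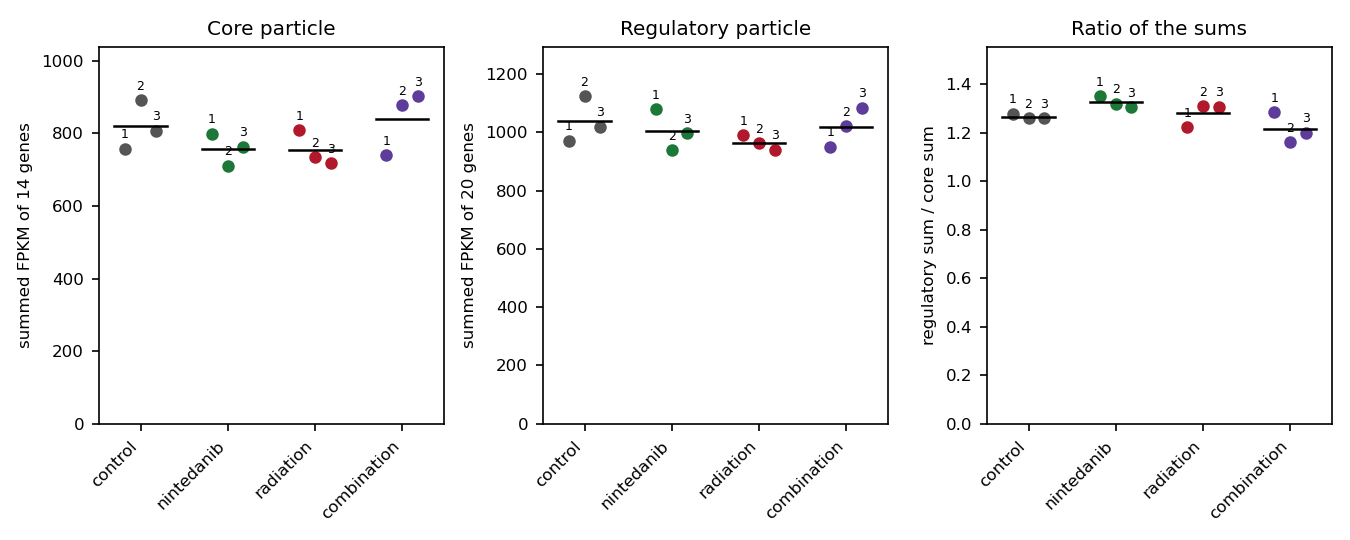
Summed FPKM of the core particle and of the regulatory particle, and the ratio of the sums, in each library (points, numbered by replicate; lines, mean; n = 3 per group). The group ranges of both sums overlap, and control 2 and combination 3 have the highest sums of their groups.

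Nintedanib changed a smaller share of subunit genes than of all genes tested, and most of those changed belonged to the regulatory particle. Under limma, 8 of 34 members had an adjusted p under 0.05 against control, referred to below as called, 2 higher and 6 lower, beside 41.6% of all genes tested (19.7% higher and 22.0% lower) and 50.7% of genes with a mean of at least 10 FPKM. The members' share, 23.5%, was below both. Of the 8, 7 were among the 20 regulatory members and 1 among the 14 core members. In bulk RNA of this kind, a smaller share of cells expressing a gene and less RNA per cell cannot be told apart.

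The largest change was in Psmd8, a lid subunit. It stood at 73.5, 87.5 and 78.9 FPKM in controls and at 123, 115 and 127 FPKM with nintedanib. All treated libraries lay above all controls, with means of 80.0 ± 7.08 and 121.8 ± 5.85 FPKM (SD, n = 3). The log2 fold change was 0.60 (SE 0.0863, adjusted p = 0.000222), a rise of 52.3%. Psmd13, a structural subunit of the same lid, also rose: it had 22.9, 28.2 and 25.3 FPKM in controls and 33.7, 30.8 and 30.3 FPKM with nintedanib, again with no overlap (log2 fold change 0.30, adjusted p = 0.0118). Without control 1 the adjusted p of Psmd13 was 0.0529 and the call was lost.

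In the ATPase ring of the base, 3 of 6 genes fell. Psmc6 had 48.6, 49.3 and 48.7 FPKM in controls, a narrow range, and 33.7, 30.2 and 38.1 FPKM with nintedanib. Every treated library was below every control, and the log2 fold change was -0.52 (SE 0.0892, adjusted p = 0.000792). Psmc2, another ATPase of the ring, had 31.3, 35.7 and 31.9 FPKM in controls against 25.1, 23.6 and 23.9 FPKM, with no overlap and a log2 fold change of -0.43 (adjusted p = 0.000733). Psmc1 fell by 0.37 (adjusted p = 0.0378), and Psmc3, Psmc4 and Psmc5 did not pass. The Psmc6, Psmc2 and Psmd8 calls held in all 20 alternative analyses, while that of Psmc1 was lost in 9 of 20 (adjusted p up to 0.148), among them without control 2, control 3, nintedanib 2, nintedanib 3 or radiation 1.

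Lid genes were split. Beside the rises of Psmd8 and Psmd13, the deubiquitinase Psmd14 fell by 0.36 (adjusted p = 0.0215) and its partner Psmd7 fell by 0.34 (adjusted p = 0.0126), and the other 4 lid genes did not pass. Psmd14 had 38.02, 41.7 and 38.1 FPKM in controls and 32.7, 25.0 and 34.4 FPKM with nintedanib, and Psmd7 had 97.7, 82.8 and 85.4 FPKM with nintedanib. For both, the treated and control libraries did not overlap. Without control 2 or nintedanib 2 neither passed, and over all alternatives the adjusted p reached 0.111 for Psmd14 and 0.054 for Psmd7. The ratio of Psmd8 to Psmd7, a pair chosen after their values were seen, was 0.710 to 0.713 in the 3 controls and 1.26 to 1.49 with nintedanib.

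In the core only Psma6, an alpha subunit, passed: it had 84.6, 101 and 83.6 FPKM in controls and 80.9, 70.8 and 66.3 FPKM with nintedanib. The groups did not overlap, but the gap was small (log2 fold change -0.30, adjusted p = 0.0361), and the call was lost in 8 of 20 alternatives (adjusted p up to 0.142), among them without control 2, nintedanib 2 or nintedanib 3. The catalytic genes did not pass. Psmb5 had 96.3, 77.1 and 84.1 FPKM with nintedanib (log2 fold change -0.09, 95% interval -0.42 to 0.24), Psmb6 had 53.6, 42.7 and 45.5 FPKM (0.01, -0.29 to 0.32) and Psmb7 had 23.2, 22.1 and 17.98 FPKM (-0.19, -0.51 to 0.13). All 3 overlapped with the controls. The median log2 fold change was -0.10 over the core, -0.05 over the regulatory particle and -0.02 over all genes. Each library rescaled to a common FPKM sum gave 3 members higher and 3 lower, with medians of -0.01 and 0.04, and moved the share of called genes that were higher from 47.2% to 60.02%. Leaving out control 2 or nintedanib 2 left 4 members called, and fitting only these groups or applying no filter left 5.

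**Figure D3:**
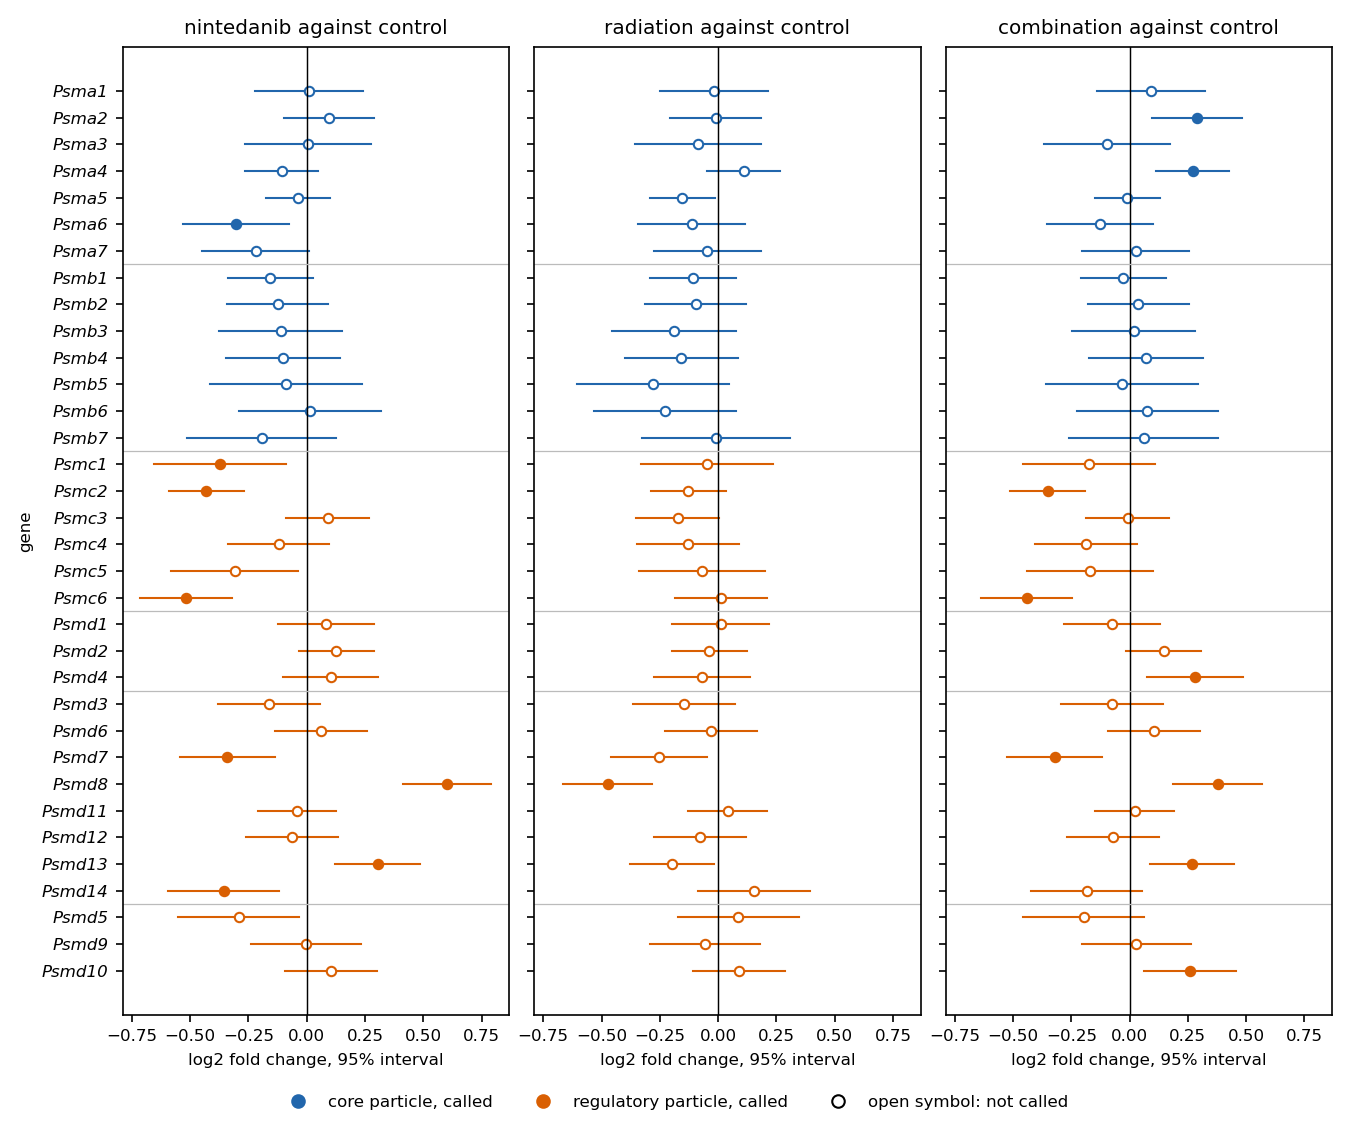
Log2 fold change of each tested member against control, with its 95% interval, for nintedanib, radiation and the combination (n = 3 libraries per group; filled symbols passed an adjusted p of 0.05). Filled symbols are mostly regulatory members; Psmd8 lies at 0.60 with nintedanib, at -0.47 after radiation and at 0.38 with both.

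Radiation alone was called in a single member, again Psmd8, and in the opposite direction to nintedanib. Its irradiated libraries had 60.6, 57.1 and 53.9 FPKM, all below the lowest control of 73.5. The log2 fold change was -0.47 (SE 0.0863, adjusted p = 0.00452), a fall to 57.2 ± 3.34 FPKM (SD, n = 3) that held in all 20 alternatives. This was 1 of 34 members (2.94%), beside 17.9% of all genes tested (8.04% higher and 9.90% lower) and 19.7% of genes averaging at least 10 FPKM. At an unadjusted p under 0.05 there were 4 members, beside 4185 of 13012 genes, and fitting only these groups called 2, beside 21.4% of all genes.

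No core member passed after radiation under limma or under voom on the recovered fragments, and 1 core member had an unadjusted p under 0.05. The core genes with the largest differences were beta subunits, 2 of them catalytic. Psmb5 had 81.0, 66.4 and 77.8 FPKM after radiation, all below the lowest control of 82.4, with a log2 fold change of -0.28 (95% interval -0.61 to 0.05, adjusted p = 0.218). Psmb6 had 44.0, 39.2 and 36.2 FPKM, which overlapped the controls (-0.23, -0.53 to 0.08, adjusted p = 0.285). Psmb3, a non-catalytic beta subunit, had 54.3, 44.5 and 43.7 FPKM against 51.4, 58.7 and 52.4 in controls, also overlapping (-0.19, -0.45 to 0.08, adjusted p = 0.307). The trypsin-like Psmb7 had 27.0, 24.2 and 21.01 FPKM (-0.01, -0.33 to 0.31).

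Across the core, 13 of 14 fold changes were negative with a median of -0.10, and 14 of 20 were negative in the regulatory particle with a median of -0.06, while 7306 of 13012 genes were negative with a median of -0.04. These signs depended on scaling. With each library rescaled to a common FPKM sum, the medians were 0.01 for the core, 0.04 for the regulatory particle and 0.06 over all genes. The share of called genes that were higher was 44.8% as deposited, 69.8% after that rescaling and 60.1% when scaled by fragment totals, with Psmd8 still the sole member called in each.

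With both treatments, 9 of 34 members passed against control, 6 higher and 3 lower, beside 47.2% of all genes tested (22.3% higher and 25.0% lower) and 55.0% of genes averaging at least 10 FPKM. The members' share was 26.5%. The core supplied 2 of the 9, both higher, and the regulatory particle 7. Psmd8 had 96.9, 102 and 114 FPKM with both treatments, all above the controls and below the nintedanib libraries (log2 fold change against control 0.38, SE 0.0863, adjusted p = 0.00389). The lid subunit Psmd13 rose by 0.27 (adjusted p = 0.0197), and so did the ubiquitin receptor Psmd4, by 0.28 (adjusted p = 0.0281), and the base chaperone Psmd10, by 0.26 (adjusted p = 0.0340). The Psmd4 groups overlapped, since combination 1 (51.8 FPKM) lay below control 2 (53.0 FPKM). The calls of Psmd4 and Psmd10 were each lost in 6 of 20 alternatives (adjusted p up to 0.119 and 0.108), among them without control 1, control 3, combination 2 or combination 3. That of Psmd13 was lost in 4 (up to 0.0879), among them without control 1, control 3 or combination 3.

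The members that fell were regulatory. Psmc6 had 34.7, 37.9 and 34.6 FPKM with both treatments, far from its narrow control range (log2 fold change -0.44, adjusted p = 0.00183). Psmc2 had 23.8, 27.1 and 26.0 FPKM (log2 fold change -0.35, adjusted p = 0.00226). Psmd7 had 79.8, 94.2 and 95.5 FPKM and fell by 0.32 (adjusted p = 0.0146). None of the 3 overlapped with the controls. The Psmd7 call was lost without control 2 or combination 1 (adjusted p up to 0.0604).

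Both core genes that rose encode alpha subunits. Psma4 was tightly placed in controls, at 41.7, 42.3 and 43.5 FPKM, and had 47.1, 55.0 and 52.7 FPKM with both treatments (log2 fold change 0.27, adjusted p = 0.00887). Psma2 had 24.8, 30.1 and 28.9 FPKM in controls and 32.3, 33.7 and 36.8 FPKM with both (log2 fold change 0.29, adjusted p = 0.0191). Neither overlapped with its controls, and the Psma4 call held in all 20 alternatives, while that of Psma2 was lost without control 1 or combination 3 (adjusted p = 0.085 and 0.0737). A gene on the same strand, AW209491, overlaps Psma2 and averaged 5.21 FPKM, and reads of the overlap could have been counted for either.

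Of the catalytic genes, Psmb5 and Psmb6 were most scattered in the combination group, with SDs of 17.9 and 8.06 FPKM. Psmb5 had 69.5, 100.5 and 100.5 FPKM, Psmb6 had 41.2, 50.2 and 57.3 FPKM and Psmb7 had 21.8, 25.7 and 28.4 FPKM, with combination 1 the lowest each time. Their log2 fold changes against control were -0.03 (95% interval -0.36 to 0.29), 0.08 (-0.23 to 0.38) and 0.06 (-0.26 to 0.38). Without control 1, 5 members in all passed in this comparison.

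**Figure D4:**
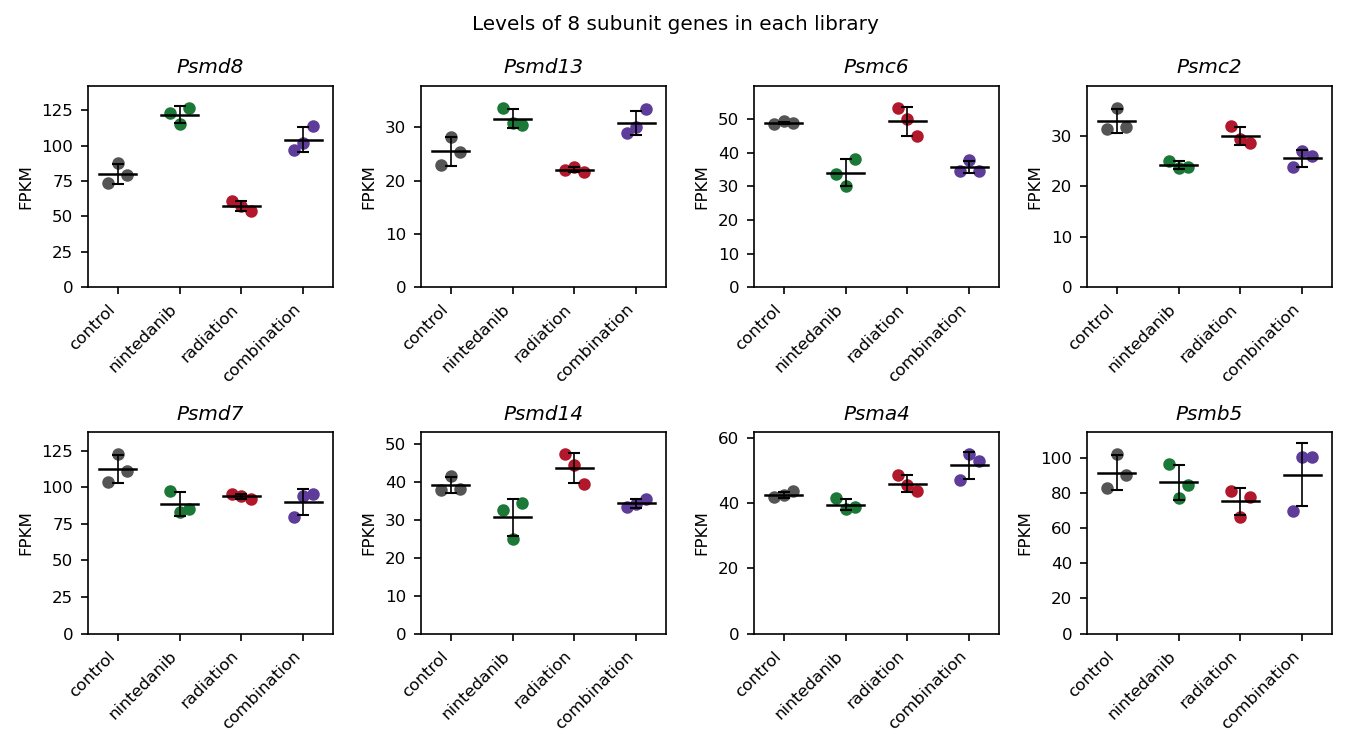
FPKM of 8 subunit genes in every library (points; horizontal line, mean; bars, SD; n = 3 per group). Psmd8 separates all 4 groups without overlap, Psmc6 and Psmc2 separate the libraries given nintedanib from those not given it, and the 4 groups of Psmb5 overlap in part.

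Adding nintedanib to radiation was tested between the combination and radiation groups. Here 7 of 34 members passed, 4 higher and 3 lower, beside 34.4% of all genes tested (17.2% higher and 17.3% lower) and 43.4% of genes averaging at least 10 FPKM. The members' share was 20.6%, and 6 of the 7 were regulatory (30% of regulatory members, also below the share of all genes). Psmd8 rose from 57.2 ± 3.34 to 104 ± 8.82 FPKM (SD, n = 3), a log2 fold change of 0.85 (SE 0.0863, adjusted p = 3.18e-05). This was the largest log2 fold change of a member in the 5 comparisons tested between groups, and no call in them reached 2-fold; nintedanib was not compared with radiation. Psmd13 had 21.9, 22.6 and 21.6 FPKM after radiation, below 29.0, 30.1 and 33.4 FPKM with both (log2 fold change 0.46, adjusted p = 0.00129). Psmd4 rose by 0.35 (adjusted p = 0.0133), a call lost without radiation 2, combination 2 or combination 3 (adjusted p up to 0.0531).

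Psmc6 fell by 0.45 (adjusted p = 0.00249) from 53.4, 49.9 and 44.9 FPKM after radiation. Psmd14 fell by 0.34 (adjusted p = 0.0324) and Psmc2 fell by 0.22 (adjusted p = 0.0365), but these calls were lost in 7 and 8 of 20 alternatives (adjusted p up to 0.114 and 0.133). Both were lost without radiation 1, radiation 2, combination 1 or combination 3, Psmd14 also without combination 2 and Psmc2 also without control 3. In the core, Psma2 rose from 29.8, 27.4 and 25.8 FPKM by 0.30 (adjusted p = 0.0221), without overlap, a call lost without radiation 2, radiation 3 or combination 3 (adjusted p = 0.0623, 0.0824 and 0.0838). Psmb5 and Psmb6 did not pass (log2 fold changes 0.25 and 0.30, adjusted p = 0.228 and 0.115), but without combination 1 they did, at 0.42 and 0.43 (adjusted p = 0.0240 and 0.0357). Psmb7 differed by 0.07 (95% interval -0.25 to 0.39). Leaving out radiation 2 or combination 3 left 3 members called.

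The comparisons of nintedanib with control and of combination with radiation use no library in common, and 5 members were called in the same direction in both: Psmd8 and Psmd13 higher, and Psmc6, Psmc2 and Psmd14 lower. These were 5 of 34 members, beside 26.3% of all genes tested. Across the 34 members, which are not independent of each other and share their libraries, Pearson's r between the 2 sets of fold changes was 0.862. It was 0.925 over the 20 regulatory members and 0.566 over the 14 core members. The members with the largest fold changes in both comparisons, Psmd8 upward and Psmc6 downward, were regulatory.

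The test of whether the nintedanib effect differed with radiation, the interaction, called no member under limma or voom, beside 1 gene of 13012 (0.00769%). At an unadjusted p under 0.05 there was 1 member, beside 1685 of 13012 genes. The interaction was positive for 32 of 34 members, with medians of 0.26 over the core, 0.07 over the regulatory particle and 0.01 over all genes, where 6757 of 13012 were positive. The largest core values were 0.34 for Psmb5, 0.33 for Psmb4 and 0.32 for Psmb3 (adjusted p = 0.489, 0.397 and 0.437), and the largest regulatory values were 0.27 for Psmd7 and 0.25 for both Psmd4 and Psmd8 (adjusted p = 0.400, 0.435 and 0.406). Psmb4, a non-catalytic beta subunit, had 93.4, 113 and 104 FPKM in controls, 105, 91.2 and 93.0 with nintedanib, 101, 88.5 and 88.3 after radiation, and 92.3, 118 and 117 with both, so that all 4 groups overlapped. Rescaling to a common FPKM sum moved the median of all genes by -0.12 and gave 0.13 for the core and -0.06 for the regulatory particle.

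**Figure D5:**
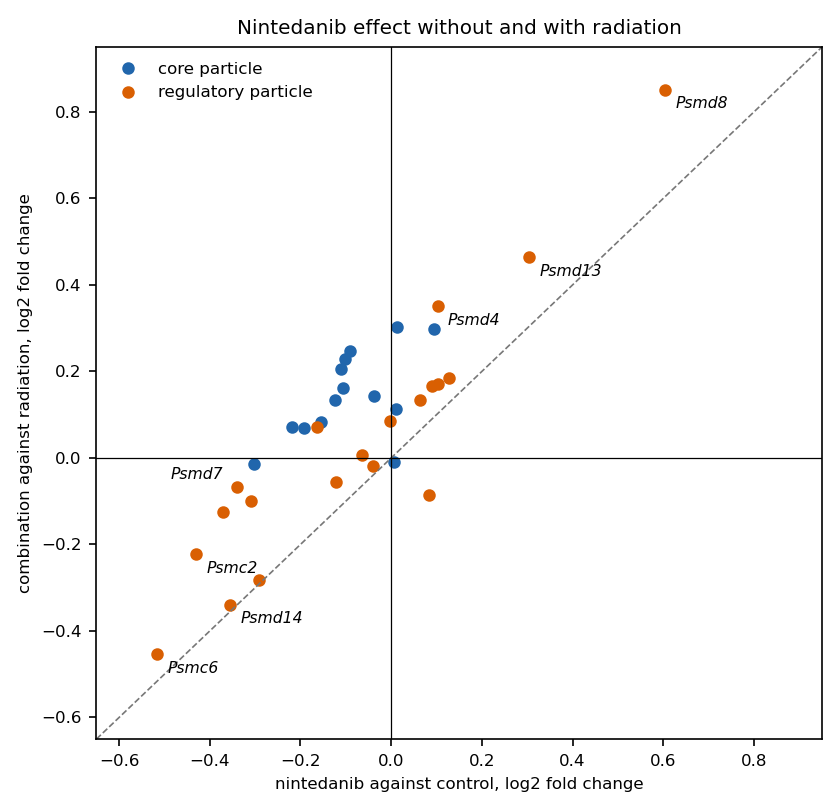
Log2 fold change of each tested member for nintedanib against control (horizontal axis) and for combination against radiation (vertical axis), with the line of equal values dashed. Psmd8 and Psmc6 lie at opposite ends, and 32 of 34 members lie above the line.

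Adding radiation to nintedanib changed 1 member, beside 5.55% of all genes tested (3.17% higher and 2.37% lower) and 6.17% of genes averaging at least 10 FPKM. Psma4 had 41.4, 38.3 and 38.6 FPKM with nintedanib, below all combination libraries (log2 fold change 0.38, adjusted p = 0.0141). That call was lost without nintedanib 2 (adjusted p = 0.0505), without combination 2 (0.0592) and when only these groups were fitted (0.125). No regulatory member passed under limma or voom, and 3 members in all had an unadjusted p under 0.05, beside 2863 of 13012 genes. The largest regulatory values were -0.23 for Psmd8 (adjusted p = 0.157), 0.20 for Psmc1 (adjusted p = 0.408) and 0.18 for Psmd4 (adjusted p = 0.293). Psmc1 had 77.4, 68.3 and 55.3 FPKM with nintedanib and 69.8, 82.1 and 77.1 with both, and Psmd4 had 54.6, 49.2 and 51.1 and then 51.8, 62.2 and 62.1. Both pairs of groups overlapped, whereas the Psmd8 groups did not. The catalytic genes Psmb5, Psmb6 and Psmb7 differed by 0.06, 0.06 and 0.25, with 95% intervals of -0.27 to 0.38, -0.24 to 0.37 and -0.07 to 0.57.

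Over the 5 comparisons between groups, 12 of 34 members were called at least once, beside 60.7% of all genes tested. The 12 comprised 3 of 14 core members and 9 of 20 regulatory members, and 22 members were called in none. The 3 core members, Psma2, Psma4 and Psma6, all belong to the alpha ring. No beta ring member was called in these comparisons under limma with all libraries, and the largest absolute log2 fold change among them was 0.30. For most members that did not pass, the 95% interval lay within a log2 difference of 0.5 in either direction. This held for 23 of 26 with nintedanib, 31 of 33 with radiation and 25 of 25 with both. Smaller changes are not excluded for them, and called members such as Psma4 (0.27 with both) moved by less than 0.5. These comparisons share control libraries.

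Among genes that act with the proteasome, Nfe2l1, which encodes NRF1, had 108, 119 and 105 FPKM in controls, 68.8, 69.9 and 58.4 with nintedanib, 114, 109 and 111 after radiation, and 72.1, 80.0 and 67.3 with both. The libraries given nintedanib lay below all others. The log2 fold change was -0.74 with nintedanib (adjusted p = 6.1e-05), 0.01 after radiation (adjusted p = 0.937) and -0.59 with both (adjusted p = 0.000254). Of the 10 genes of NRF1 and its processing, 6 were lower with nintedanib, 3 after radiation and 6 with both, and none was higher, beside 22.0%, 9.90% and 25.0% of all genes tested that were lower. Those with the smallest adjusted p were the small MAF partners Mafk (-0.74 with nintedanib) and Mafg (-0.60 after radiation and -0.81 with both). The protease Ddi2, which cuts NRF1 into its active form, fell by 0.39 with nintedanib and by 0.59 with both.

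Of 14 enzymes and shuttle factors that bind the proteasome, 10 were lower and 2 higher with nintedanib, 2 lower after radiation, and 9 lower with both, beside the same shares of all genes. Among them the ubiquitin shuttle Ubqln4 had log2 fold changes of -0.53, -0.37 and -0.78 in these comparisons. Akirin2, which brings proteasomes into the nucleus, fell by 0.52 with nintedanib and by 0.41 with both. Of the 5 activators and inhibitors, the nuclear activator Psme3 fell in all 3 comparisons, by 0.83, 0.43 and 0.92. Psme1, a subunit of the interferon-inducible activator, rose by 0.32 with nintedanib and by 0.54 with both. Its partner subunit Psme2 did not rise with them: it averaged 11.05 FPKM in controls, 10.74 with nintedanib, 13.58 after radiation and 9.24 with both. Of the 5 chaperones of core assembly, Psmg2 fell by 0.66 with nintedanib and by 0.67 with both, Psmg3 fell by 0.52, 0.51 and 0.59, and Pomp rose by 0.48 with both (adjusted p = 0.00247). The subunits Adrm1 and Sem1, which the symbol rule does not reach, did not pass in any comparison. The polyubiquitin gene Ubb fell by 0.63 with nintedanib.

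The immunoproteasome subunits, which replace the catalytic subunits in particles induced by interferon, were lower in FPKM than their counterparts, to unequal degrees. Summed over Psmb8, Psmb9 and Psmb10, they came to 9.92% to 11.6% of the summed Psmb5, Psmb6 and Psmb7 in controls, 10.8% to 13.2% with nintedanib, 17.6% to 20.3% after radiation and 14.7% to 19.2% with both. In this sum the irradiated groups lay above the unirradiated ones in every library. Taken singly in controls, Psmb8 was 5.93% to 7.27% of Psmb5 and Psmb9 was 2.25% to 2.69% of Psmb6. Psmb10 was 39.06% to 42.8% of Psmb7 in controls and 51.96% to 59.25% after radiation. All these shares also depend on gene model lengths. Psmb8, the counterpart of Psmb5, rose by 0.39 with nintedanib (adjusted p = 0.0433), by 0.66 after radiation (adjusted p = 0.00966) and by 1.06 with both (adjusted p = 0.000106).

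Gene models of 16 tested members overlap another gene, and in 3 of them that gene's mean level exceeded 10% of the member's: Psma2 as above, Psmd13 with Gm15542 on the same strand (3.96 FPKM) and Psmc3 with Slc39a13 on the opposite strand (18.5 FPKM). The sources used here do not say whether counting used strand, so these levels are less certain. Processed pseudogenes of the members reached at most 0.396 FPKM.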

How the data were processed

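RNA was sequenced from MC38 cells in 4 groups of 3 libraries, made with a SMARTER mRNA-seq kit per the labels' protocols. The authors deposited 1 table of FPKM values for 54532 genes with GRCm38 (mm10) as the build per the submitters' processing notes. The aligner, counter, strand setting and scaling were not given in the sources used here. Multiplied back by gene length, 100% of values were whole fragments within 0.01, which gave the depth. The 95% intervals come from the limma fit and cover the spread between libraries. Every sample column was mapped to a label (0 unmapped), and no replicate pair agreed within counting noise (lowest chi-square per gene 4.29).

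The 13012 genes that reached 1 FPKM in at least 3 libraries were fitted on log2(FPKM + 1) with limma 3.58.1 in R 4.3.3, using 1 mean per group over all 12 libraries, empirical Bayes with an intensity trend, 8 residual degrees of freedom, two-sided tests and Benjamini-Hochberg adjustment over all genes tested, with a threshold of 0.05. All fold changes carry the added 1, so those of low genes are understated. The interaction is combination minus radiation minus nintedanib plus control. An exact permutation test of 3 against 3 libraries cannot go below p = 0.1 and was not used. The 36 members matched GENCODE M21 by identifier and symbol. The members, gene lists and motifs were chosen with earlier results of these data known, so no list has a p. Values per library are given for Psmb5, Psmb6, Psmb7, the 2 highest and 2 lowest genes, and, per comparison, up to 3 core and 3 regulatory members with the largest change among those called, or the largest change where none was; of the other lists, Nfe2l1 and genes with the smallest adjusted p, some of which are not reported here. Alternatives were a pseudocount of 0.1, no filter, a filter at 5 FPKM, 2 rescalings, voom on the recovered fragments, only the groups compared, a replicate block, and leaving out each library. The tests were tried on simulated data, and the outcome is not reported here.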

Additional observations from a re-analysis of the deposited data

How the results depend on the processing

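Of 119 recomputed counts of members called, 108 stayed within 1.5 times the reported value, and 234 of 238 recomputed medians moved by less than the spread between libraries. Of 832 fold changes of named members 790 kept direction and side of the threshold. With nintedanib the count was 5 with no filter and 5 with only the groups compared; that fit gave 2 after radiation and 0 for combination against nintedanib. Leaving out 1 library gave counts of 4 to 10 for nintedanib, 5 to 9 for the combination, 3 to 9 for combination against radiation and 0 to 1 for combination against nintedanib. Rescaling to a common FPKM sum gave medians after radiation of 0.005661 (core) and 0.03787 (regulatory), and interaction medians of 0.1301 and -0.06166. Signs turned for catalytic genes near 0. For Psmb5 this was 0.005555 with nintedanib and 0.03191 with the combination on the common sum, and 0.03463 with the combination on fragment totals; for Psmb7 after radiation, 0.09631 and 0.04946. Leaving out 1 library, Psmb6 ranged from -0.0787 to 0.119 with nintedanib, -0.0328 to 0.1998 with the combination and -0.0466 to 0.186 for combination against nintedanib; Psmb7 from -0.092 to 0.131 after radiation, -0.0235 to 0.1995 with the combination and -0.0216 to 0.167 for combination against radiation; and Psmb5 from -0.121 to 0.141 with the combination and -0.0318 to 0.231 for combination against nintedanib. The fits of only the groups compared and those leaving out 1 library used fewer samples. The fit with no filter tested more genes, and the rescalings multiplied each library by a factor of its own. Otherwise the cause of these differences was not tested.

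Replicate numbers did not pair the libraries: correlations of deviations between 18 same-numbered pairs ran from -0.2985 to 0.2019, 3 were over 0.1, and 4 of 12 libraries correlated best with one of their own number. With the replicate block, 7 members were called with nintedanib, 1 after radiation, 9 with the combination, 5 for combination against radiation, 1 for combination against nintedanib and 0 for the interaction. The comparisons against control share those libraries.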

Other observations

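The ratio of Psmd13 to Psmd14, both of the lid, was 0.602 to 0.677 in controls, 0.882 to 1.23 with nintedanib, 0.461 to 0.545 after radiation and 0.866 to 0.937 with both, so that the libraries given nintedanib lay above all others. The ratio of Psmd8 to the ATPase gene Psmc6 was 1.51 to 1.77 in controls, 3.33 to 3.82 with nintedanib, 1.14 to 1.202 after radiation and 2.68 to 3.29 with both, and no pair of groups overlapped. Both pairs were chosen after their values were seen, and no test was made of them. The ratio within a library does not depend on how the library is scaled.

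Among the parts of the complex, the summed ATPase genes had 339 to 406 FPKM in controls, 288 to 335 with nintedanib, 331 to 364 after radiation and 292 to 338 with both. The combination libraries lay below all controls and the nintedanib libraries did too. The summed lid genes other than Psmd8 had 301 to 348 FPKM in controls, 265 to 317 with nintedanib, 293 to 302 after radiation and 276 to 320 with both, which overlapped.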
